A study of Homo sapiens with 12 samples.

Results

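The RAB GTPases of HCC827 lung cancer cells were described here across 4 groups of arrays. The members were all genes with a probe set that carried a single symbol made of RAB, a number and at most a letter and a further digit, with 1 matching symbol left out. They came to 41 of the 11963 genes on the array, and to 75 of its 22277 probe sets. Each gene was represented by its brightest probe set over the 12 arrays.

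RAB proteins are small GTPases that give the membranes of the cell their identity. Exchange factors load them with GTP, the loaded form recruits effectors that move, tether and fuse vesicles, and GTPase-activating proteins switch it off again. A prenyl anchor holds the protein on the membrane, and GDI (the GDP dissociation inhibitor) takes the inactive form back off it. In epithelia RAB11, RAB25 and RAB17 serve the recycling endosome and delivery to the apical surface, and RAB25 is largely restricted to epithelial cells.

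HCC827 is a lung adenocarcinoma line, a non-small cell lung cancer, driven by mutant EGFR. ERC4 cells, described as resistant to the EGFR kinase inhibitor erlotinib, were set against parental HCC827 cells. Esh9-1 cells, HCC827 cells carrying a lentivirus with an shRNA against EGFR, were set against HCC827NT cells, which had received a non-target shRNA, also by lentivirus. All cells grew in RPMI with 5% FBS, and only Esh9-1 and HCC827NT cells also had 5 ug/ml puromycin. Each of the 4 groups had 3 arrays of total RNA. ERC4 was 1 resistant line and Esh9-1 bore 1 shRNA label, the resistance label of all 12 samples read resistant, and no label calls the replicates separate cultures, so the spread behind each p-value may be technical. In bulk RNA, fewer cells of a type and less RNA per cell cannot be told apart.

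Levels were read as log2(value + 1) of the deposited intensities. The array medians lay between 5.67 and 5.75 on this scale in ERC4 and HCC827, and between 7.15 and 7.17 in Esh9-1 and HCC827NT, so levels were compared only within each set of 6 arrays. The sets, the lentivirus and the puromycin cannot be told apart. EGFR, the target of the shRNA, averaged 12.25 ± 0.09 in Esh9-1 and 13.55 ± 0.10 in HCC827NT on this log2 scale (SD, n = 3 each), a fall of 2.46-fold, and averaged 12.60 ± 0.09 in ERC4 and 12.38 ± 0.04 in HCC827. Replicates correlated at 0.992 or above over all probe sets. Of 9 epithelial marker genes, 8 lay above the array medians in ERC4, 8 in HCC827, 7 in Esh9-1 and 8 in HCC827NT. None of 3 leukocyte markers did so in any group, and of 6 fibroblast and endothelial markers only COL1A1 did.

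The promoters of the 2 RAB genes that fell at least 2-fold in both comparisons, RAB25 and RAB17, and of the RAB gene that rose most in ERC4, RAB9A, are shown first. Each window runs from 250 bases before to 50 bases after the annotated start (RefSeq, GRCh38.p14), 5′ to 3′ on the strand of the gene. RAB25 lies at chr1:156060910-156061209 on the plus strand, RAB17 at chr2:237590685-237590984 on the minus strand and RAB9A at chrX:13688878-13689177 on the plus strand. Capitals mark the E-box CACCTG or CAGGTG, which is the same site read on either strand and is the form bound by ZEB1, a repressor of epithelial genes.
RAB25: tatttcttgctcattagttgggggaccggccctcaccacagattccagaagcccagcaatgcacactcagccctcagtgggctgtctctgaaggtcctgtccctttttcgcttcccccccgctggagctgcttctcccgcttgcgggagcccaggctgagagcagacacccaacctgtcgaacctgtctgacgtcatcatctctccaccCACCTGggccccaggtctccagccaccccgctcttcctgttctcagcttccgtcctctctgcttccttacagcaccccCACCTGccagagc
RAB17: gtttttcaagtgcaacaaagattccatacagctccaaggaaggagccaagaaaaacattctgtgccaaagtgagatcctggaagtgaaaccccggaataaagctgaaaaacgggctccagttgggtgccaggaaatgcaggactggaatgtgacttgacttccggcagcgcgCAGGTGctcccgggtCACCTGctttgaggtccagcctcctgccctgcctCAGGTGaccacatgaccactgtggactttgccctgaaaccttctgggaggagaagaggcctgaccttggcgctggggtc
RAB9A: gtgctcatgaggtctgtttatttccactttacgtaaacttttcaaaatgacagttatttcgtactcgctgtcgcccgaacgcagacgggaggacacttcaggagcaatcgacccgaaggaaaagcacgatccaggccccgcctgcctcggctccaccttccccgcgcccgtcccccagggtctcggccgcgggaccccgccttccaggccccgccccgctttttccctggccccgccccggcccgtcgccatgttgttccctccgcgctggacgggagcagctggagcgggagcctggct
RAB25 held 2 such sites, with first bases 41 bases before and 38 bases after the start. RAB17 held 3, at 78, 63 and 29 bases before it, and RAB9A held 0. Of all 35116 promoter windows, 20.6% held at least 1 site, 3.49% at least 2 and 0.635% at least 3. A window was listed for 33 of the 41 RAB genes, with 46 windows in all, of which 19.6% held a site and 4.35% at least 2. The 9 RAB genes with a site in a window were RAB17, RAB22A, RAB25, RAB27A, RAB30, RAB3B, RAB4A, RAB5B and RAB5C. Of the genes lower in both comparisons that had a window, 3 of 6 held a site (RAB17, RAB25 and RAB5C), and of those higher in both, 2 of 10 did (RAB22A and RAB4A). The 3 promoters printed were chosen by the change of their genes. These matches are a description of letters, not of binding. ZEB1 itself averaged 6.40 in ERC4 against 4.84 in HCC827, and 7.90 in Esh9-1 against 6.12 in HCC827NT. The rises were 2.94-fold (limma adjusted p = 8.6e-07) and 3.42-fold (limma adjusted p = 1.6e-07). The HCC827 and HCC827NT means of ZEB1 lay under the array medians of their groups, so these folds start from low signal. The part of ZEB1 in the RAB changes was not tested.

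In ERC4, 18 RAB genes were higher and 10 lower than in HCC827, and 13 did not pass the test (limma, adjusted p under 0.05 over all 11963 genes). The 28 called genes made up 68.3% of the family, where 57.7% of all genes were called, 28.9% as higher and 28.8% as lower. The median log2 fold change of the RAB genes was 0.12, where that of all genes was -0.04. Their median absolute change was 0.32, where that of all genes was 0.26. Changes of at least 2-fold were found for RAB9A, which rose, and for RAB25 and RAB17, which fell. Of all genes, 4.51% rose and 1.79% fell by at least 2-fold. The 3 arrays of ERC4 lay wholly apart from those of HCC827 for 28 RAB genes, 17 above and 11 below, where 29.8% of all genes lay above and 30.7% below. The split of 18 against 10 depended on scaling: it was 14 higher and 12 lower after quantile normalisation within the set, and 19 higher and 7 lower after centring each array on its median. The calls over all genes moved the same way: 3453 were higher and 3449 lower as reported, 2911 and 3294 after quantile normalisation, and 3849 and 2679 after median centring.

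In Esh9-1, 15 RAB genes were higher and 16 lower than in HCC827NT, and 10 did not pass the test. The 31 called genes were 75.6% of the family, where 49.9% of all genes were called, 25.3% as higher and 24.6% as lower. The median log2 fold change was -0.07, where that of all genes was -0.02. The median absolute change was 0.44, where that of all genes was 0.23. Changes of at least 2-fold were all falls, in RAB25, RAB17, RAB27B and RAB15, where 4.11% of all genes fell and 4.89% rose by at least 2-fold. The arrays of the 2 groups lay apart for 15 RAB genes above and 18 below, where 30.2% of all genes lay above and 31.2% below. RNA quality moved with this comparison: the 3′ minus 5′ difference of ACTB probe sets averaged 1.07 ± 0.15 in Esh9-1 and 0.20 ± 0.03 in HCC827NT, and that of GAPDH 0.30 ± 0.08 in Esh9-1 and -0.05 ± 0.02 in HCC827NT (log2, SD, n = 3 each). The part of these RNA differences in the RAB results was not tested. In the other set the ACTB difference averaged 0.19 ± 0.04 in ERC4 and 0.22 ± 0.05 in HCC827. That of GAPDH averaged -0.08 ± 0.03 in ERC4 and 0.06 ± 0.03 in HCC827, where the arrays of the groups lay apart. The hybridisation controls averaged 9.48 ± 0.07 in ERC4 and 11.04 ± 0.15 in HCC827. They averaged 11.92 ± 0.06 in Esh9-1 and 11.37 ± 0.10 in HCC827NT, and the part of these gaps was not tested either.

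**Figure D1:**
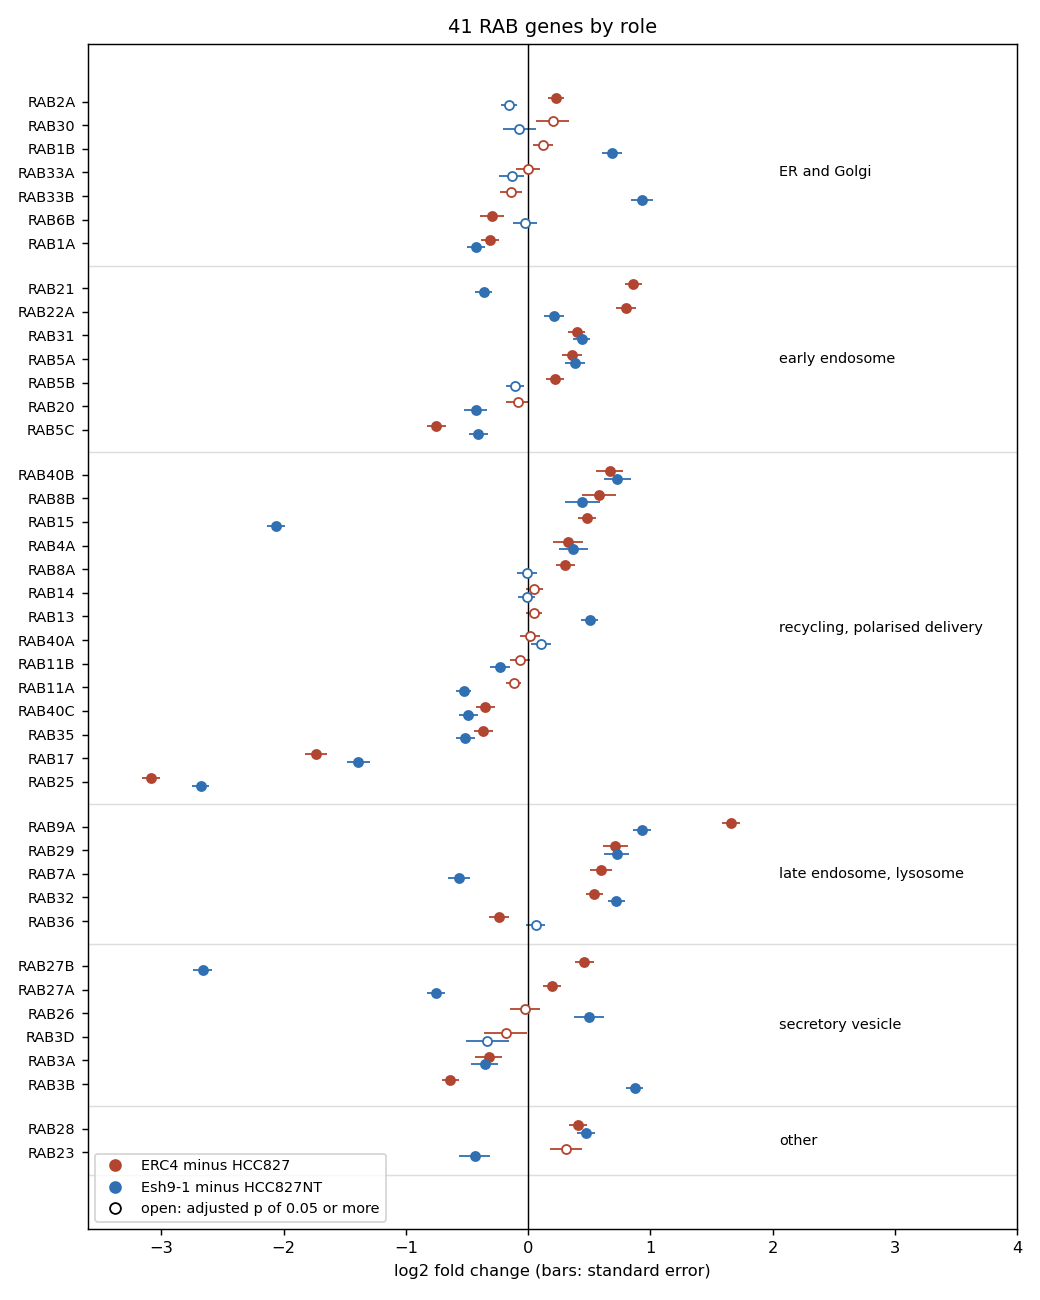
Log2 fold changes of the 41 RAB genes, grouped by role, for ERC4 minus HCC827 and for Esh9-1 minus HCC827NT. Filled symbols passed the test, open symbols did not, and bars are standard errors; RAB25 and RAB17 sit far to the left in both comparisons, and RAB27B and RAB15 only in Esh9-1.

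The group of recycling and polarised delivery held 14 members, of which 5 rose, 4 fell and 5 did not pass the test in ERC4. In Esh9-1, 4 rose, 7 fell and 3 did not pass. The called share was 64.3% in ERC4 and 78.6% in Esh9-1, where 57.7% and 49.9% of all genes were called. Both group means lay under the array medians for 2 members in ERC4, with 1 called, and for 1 in Esh9-1, with 0 called. Of all genes not under the medians in both groups, 68.1% were called in ERC4 and 65.9% in Esh9-1. The group median was 0.03 in ERC4 and -0.12 in Esh9-1, and its extreme members were RAB25, RAB17 and RAB15.

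RAB25, a close relative of RAB11 that returns integrins and receptors from recycling endosomes, had log2 levels of 4.23, 4.27 and 4.25 in ERC4, against 7.39, 7.30 and 7.32 in HCC827. In Esh9-1 the levels were 5.68, 5.82 and 5.71, against 8.32, 8.38 and 8.54 in HCC827NT. Every array of ERC4 and of Esh9-1 lay below every array of its own control. RAB25 fell by 3.09 ± 0.07 (SE) in ERC4, which is 8.49-fold, with a limma adjusted p of 5.4e-13. It fell by 2.68 ± 0.07 in Esh9-1, which is 6.41-fold, with an adjusted p of 3.6e-13. These folds depend on the pseudocount: with 16 in place of 1, RAB25 fell 5.19-fold in ERC4 and 5.22-fold in Esh9-1. Relative to the array medians RAB25 stood 1.44 below in ERC4 and 1.59 above in HCC827, and 1.44 below in Esh9-1 and 1.25 above in HCC827NT. The fall differed between the comparisons by -0.41 ± 0.10 (adjusted p = 0.0035), and with the pseudocount of 16 this difference was 0.01 with an adjusted p of 0.95.

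RAB17, an epithelial RAB that acts in transcytosis and in apical recycling, had levels of 5.53, 5.65 and 5.34 in ERC4, against 7.19, 7.13 and 7.41 in HCC827. Its levels were 6.32, 6.39 and 6.51 in Esh9-1, against 7.77, 7.77 and 7.85 in HCC827NT. The groups did not overlap in either set. RAB17 fell by 1.74 ± 0.09 in ERC4 (3.33-fold, adjusted p = 2e-09) and by 1.39 ± 0.09 in Esh9-1 (2.62-fold, adjusted p = 1.1e-08). Of the 9 epithelial markers, 7 fell, 1 rose and 1 did not pass the test in ERC4, and 8 fell and 1 did not pass in Esh9-1. Their mean level ranged from 8.66 to 8.72 in ERC4 and from 9.84 to 9.88 in HCC827, and from 8.86 to 8.94 in Esh9-1 and from 11.4 to 11.5 in HCC827NT. The part of these markers in the RAB result was not tested. CDH1, the epithelial adhesion molecule E-cadherin, changed by -2.75 ± 0.10 in ERC4 and -6.28 ± 0.10 in Esh9-1, and ESRP1, an epithelial splicing factor, by -3.85 ± 0.14 and -4.22 ± 0.14. Among the markers that did not follow, NKX2-1, a transcription factor of lung epithelium, rose by 0.37 in ERC4 (adjusted p = 0.0014), SFTPB (surfactant protein B) changed by 0.01 there (adjusted p = 0.95), and KRT5, a basal keratin, changed by 0.16 in Esh9-1 (adjusted p = 0.20).

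RAB15, which slows the return of receptors from early endosomes, had levels of 9.92, 9.94 and 9.82 in ERC4, against 9.39, 9.50 and 9.35 in HCC827. It had 10.25, 10.06 and 10.04 in Esh9-1, against 12.16, 12.20 and 12.18 in HCC827NT. ERC4 thus lay above its control and Esh9-1 below its own, in every array. The rise in ERC4 was 0.48 ± 0.07 (1.39-fold, adjusted p = 7e-05) and RAB15 fell by 2.06 ± 0.07 in Esh9-1 (4.18-fold, adjusted p = 9.6e-12). The other RAB15 probe set changed by 0.24 in ERC4 and -2.16 in Esh9-1.

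The nearest relatives of RAB25 are RAB11A and RAB11B. RAB11A, the general RAB of the recycling endosome, had levels of 9.29, 9.23 and 9.29 in ERC4, against 9.41, 9.44 and 9.33 in HCC827, a change of -0.12 ± 0.06 that did not pass the test (adjusted p = 0.11). In Esh9-1 the levels were 10.97, 11.03 and 11.03, against 11.55, 11.50 and 11.56 in HCC827NT, and RAB11A fell by 0.53 ± 0.06 (adjusted p = 4e-06). Its other probe set read 0.67 in ERC4 and -0.18 in Esh9-1, so the sign in ERC4 depends on the probe set. After quantile normalisation the brightest probe sets passed as lower in ERC4, that of RAB11A at -0.32 (adjusted p = 0.00053) and that of RAB11B at -0.23 (adjusted p = 0.020). RAB11B changed by -0.07 ± 0.08 in ERC4 (adjusted p = 0.48) and by -0.23 ± 0.08 in Esh9-1 (adjusted p = 0.026), a call that ended without any 1 of 3 arrays, HCC827NT replicate 3 and Esh9-1 replicates 2 and 3 (adjusted p from 0.056 to 0.14). Its other probe set, with a mean level of 7.43 against 7.65, changed by 0.02 in ERC4 (adjusted p = 0.80) and by -1.02 in Esh9-1 (adjusted p = 1.2e-08 over all probe sets).

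Of the other members of this group, RAB35 (fast recycling to the surface) and RAB40C (a substrate adaptor of ubiquitin ligases) fell in both comparisons, by 0.37 and 0.35 in ERC4 and by 0.51 and 0.49 in Esh9-1. Another RAB35 probe set read -0.28 in ERC4 (adjusted p = 0.16) and -1.78 in Esh9-1. RAB40B, its relative, rose in both, by 0.67 and 0.73, and so did RAB8B, by 0.58 and 0.44, and RAB4A (rapid recycling), by 0.33 and 0.37. Another RAB40B probe set read -0.25 in ERC4 (adjusted p = 0.098), and another RAB4A probe set read 1.61 in Esh9-1. RAB8A, which carries cargo from the Golgi to the surface and to the cilium, rose by 0.30 in ERC4 and changed by -0.01 in Esh9-1 (adjusted p = 0.94). RAB13, a RAB of tight junctions, changed by 0.05 in ERC4 (adjusted p = 0.58) and rose by 0.50 in Esh9-1. RAB14 (0.05 in ERC4 and -0.01 in Esh9-1) and RAB40A (0.02 and 0.11) passed the test in neither comparison. Another RAB14 probe set passed in both, at 0.24 in ERC4 (adjusted p = 0.019) and -0.28 in Esh9-1 (adjusted p = 0.0075).

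**Figure D2:**
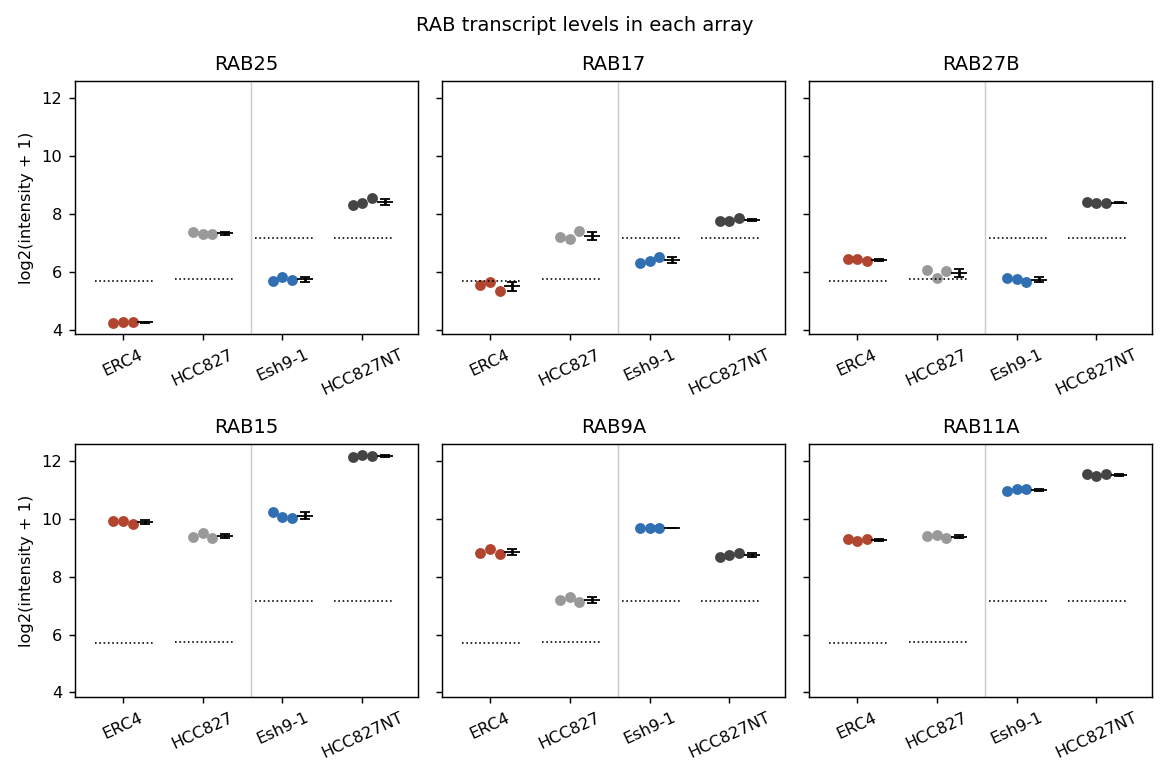
Log2 level of RAB25, RAB17, RAB27B, RAB15, RAB9A and RAB11A in each of the 12 arrays, by group. Points are arrays, black dashes and bars are the mean ± SD (n = 3), and dotted lines are the median of the arrays in that group; RAB25 lies below the dotted line in ERC4 and Esh9-1 and above it in HCC827 and HCC827NT.

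The secretory vesicle group held 6 members, of which 2 rose, 2 fell and 2 did not pass the test in ERC4. In Esh9-1, 2 rose, 3 fell and 1 did not pass. That is 66.7% called in ERC4 and 83.3% in Esh9-1, where 57.7% and 49.9% of all genes were. RAB27B, which docks secretory and exosome-bearing vesicles at the plasma membrane, had levels of 6.45, 6.43 and 6.37 in ERC4, against 6.06, 5.79 and 6.03 in HCC827. It had 5.80, 5.75 and 5.64 in Esh9-1, against 8.41, 8.39 and 8.37 in HCC827NT. All ERC4 arrays lay above HCC827, and all Esh9-1 arrays below HCC827NT. The gene rose by 0.46 ± 0.08 in ERC4 (1.38-fold, adjusted p = 0.00016) and fell by 2.66 ± 0.08 in Esh9-1 (6.33-fold, adjusted p = 1.2e-12). Relative to the array medians it stood 0.73 above in ERC4 and 0.21 above in HCC827, and 1.44 below in Esh9-1 and 1.23 above in HCC827NT. Its other probe set changed by 1.28 in ERC4 and -3.03 in Esh9-1.

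RAB27A, the paralogue that acts on melanosomes and cytotoxic granules, had levels of 7.97, 8.12 and 8.08 in ERC4, against 7.85, 7.98 and 7.75 in HCC827, and 9.52, 9.46 and 9.61 in Esh9-1, against 10.26, 10.29 and 10.28 in HCC827NT. The ERC4 and HCC827 arrays overlapped, and the Esh9-1 arrays all lay below HCC827NT. Its rise of 0.20 ± 0.07 in ERC4 (adjusted p = 0.034) turned to -0.03 after quantile normalisation, and it fell by 0.75 ± 0.07 in Esh9-1 (1.68-fold, adjusted p = 6.7e-07). RAB3B, a RAB of regulated exocytosis, fell by 0.64 ± 0.07 in ERC4 (adjusted p = 2.1e-06) and rose by 0.87 ± 0.07 in Esh9-1 (adjusted p = 5.8e-08). RAB3A, the synaptic vesicle member, fell in both, by 0.32 in ERC4 and by 0.36 in Esh9-1, and RAB26 (secretory granules) changed by -0.03 in ERC4 (adjusted p = 0.86) and rose by 0.50 in Esh9-1. RAB3D passed in neither, with changes of -0.18 in ERC4 and -0.34 in Esh9-1.

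The group of late endosomes, lysosomes and related organelles held 5 members, of which 4 rose and 1 fell in ERC4. In Esh9-1, 3 rose, 1 fell and 1 did not pass. Of all genes, 57.7% were called in ERC4 and 49.9% in Esh9-1. Both group means lay under the array medians for 1 member in each comparison, called only in ERC4. Of all genes not under the medians in both groups, 68.1% were called in ERC4 and 65.9% in Esh9-1. The group median log2 fold change was 0.59 in ERC4 and 0.72 in Esh9-1, where that of all genes was -0.04 and -0.02. RAB9A, which returns mannose 6-phosphate receptors from late endosomes to the Golgi, had levels of 8.82, 8.96 and 8.78 in ERC4, against 7.19, 7.30 and 7.11 in HCC827. It had 9.67, 9.69 and 9.69 in Esh9-1, against 8.69, 8.75 and 8.83 in HCC827NT. Both ERC4 and Esh9-1 lay above their controls in every array. RAB9A rose by 1.66 ± 0.07 in ERC4 (3.15-fold, adjusted p = 2.8e-10) and by 0.93 ± 0.07 in Esh9-1 (1.91-fold, adjusted p = 5.8e-08), a difference of 0.73 ± 0.10 (adjusted p = 3.9e-05).

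RAB29, which recruits the kinase LRRK2 to membranes, and RAB32, a RAB of lysosome-related organelles, also rose in both comparisons. RAB29 rose by 0.71 ± 0.10 in ERC4 and by 0.73 ± 0.10 in Esh9-1, and RAB32 by 0.54 ± 0.07 and 0.72 ± 0.07. RAB7A, which drives the fusion of late endosomes with lysosomes, had levels of 8.28, 8.44 and 8.40 in ERC4, against 7.59, 7.89 and 7.86 in HCC827, and of 9.74, 9.92 and 9.75 in Esh9-1, against 10.48, 10.33 and 10.30 in HCC827NT. It rose by 0.59 ± 0.09 in ERC4 (adjusted p = 6.9e-05) and fell by 0.57 ± 0.09 in Esh9-1 (adjusted p = 9.7e-05). Another RAB7A probe set was called in ERC4 with the opposite sign, -0.31, at a mean log2 level of 3.80, against 9.08 for the brightest. RAB36 fell by 0.24 in ERC4, where both group means lay under the array medians, and changed by 0.06 in Esh9-1 (adjusted p = 0.58).

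The early endosome group held 7 members, of which 5 rose, 1 fell and 1 did not pass in ERC4. In Esh9-1, 3 rose, 3 fell and 1 did not pass. Calls covered 85.7% of the group in each comparison, where 57.7% of all genes were called in ERC4 and 49.9% in Esh9-1. After quantile normalisation RAB5A (0.14, adjusted p = 0.17) and RAB5B (0.11, adjusted p = 0.22) no longer passed in ERC4, and RAB20 passed as lower (-0.26, adjusted p = 0.033). RAB5C, one of the RAB5 paralogues that control fusion of early endosomes, fell in both, by 0.75 ± 0.08 in ERC4 (1.68-fold) and by 0.41 ± 0.08 in Esh9-1 (1.33-fold). RAB5A rose by 0.36 in ERC4 and by 0.38 in Esh9-1, but in Esh9-1 its other probe set fell by 0.66 and the mean of both was -0.14 (adjusted p = 0.064). RAB5B rose by 0.22 in ERC4 and changed by -0.11 in Esh9-1 (adjusted p = 0.25). RAB21, which carries integrins into early endosomes, had levels of 7.69, 7.73 and 7.66 in ERC4, against 6.76, 6.98 and 6.77 in HCC827, a rise of 0.86 ± 0.07 (1.81-fold, adjusted p = 1.3e-07). In Esh9-1 it had 9.17, 9.18 and 9.18, against 9.51, 9.53 and 9.57 in HCC827NT, and RAB21 fell by 0.37 ± 0.07 (1.29-fold, adjusted p = 0.00043). RAB22A and RAB31, both RAB5 relatives, rose in both comparisons, RAB22A by 0.80 and 0.21 and RAB31 by 0.40 and 0.44. The RAB22A call in Esh9-1 (adjusted p = 0.043) ended after median centring (adjusted p = 0.054) and without any 1 of 7 arrays (adjusted p from 0.051 to 0.15), which were all of Esh9-1 and HCC827NT and ERC4 replicate 3. RAB20 changed by -0.09 in ERC4 (adjusted p = 0.45) and fell by 0.43 in Esh9-1.

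Among the 7 members of the endoplasmic reticulum and Golgi group, 1 rose, 2 fell and 4 did not pass in ERC4. In Esh9-1, 2 rose, 1 fell and 4 did not pass. Calls covered 42.9% of the group in each comparison, where 57.7% of all genes were called in ERC4 and 49.9% in Esh9-1. Both group means lay under the array medians for 3 of the 7 genes in ERC4 and for 2 in Esh9-1, and 0 were called. Of all genes not under the medians in both groups, 68.1% were called in ERC4 and 65.9% in Esh9-1. RAB1A, which directs transport between the endoplasmic reticulum and the Golgi, fell by 0.31 in ERC4 and by 0.43 in Esh9-1, whereas its paralogue RAB1B changed by 0.12 in ERC4 (adjusted p = 0.22) and rose by 0.69 ± 0.08 in Esh9-1 (1.61-fold). RAB33B, a Golgi RAB that also takes part in autophagy, rose by 0.93 ± 0.09 in Esh9-1 (1.90-fold, adjusted p = 6.7e-07). It changed by -0.14 in ERC4 (adjusted p = 0.20), where both groups lay under the array medians. RAB2A rose by 0.23 in ERC4 and RAB6B fell by 0.29, and neither passed in Esh9-1, with changes of -0.16 and -0.02. Under several other settings RAB2A passed as lower in Esh9-1, such as quantile normalisation (-0.17, adjusted p = 0.039). RAB6B passed as lower there with the mean of its probe sets (-0.22, adjusted p = 0.022). RAB30 (0.20 in ERC4 and -0.07 in Esh9-1) and RAB33A (a change that rounds to 0 in ERC4 and -0.14 in Esh9-1) passed in neither comparison. Of the last pair, RAB28, a ciliary RAB, rose by 0.41 in ERC4 and by 0.47 in Esh9-1, and RAB23, known from Hedgehog signalling, changed by 0.31 in ERC4 (adjusted p = 0.054) and fell by 0.44 in Esh9-1.

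Low signal touched 9 RAB genes in ERC4 and HCC827 and 5 in Esh9-1 and HCC827NT, whose 2 group means both lay under the array medians. Of these, 3 were called in ERC4 (RAB28, RAB8B and RAB36) and 1 in Esh9-1 (RAB26). Without the dim genes 25 of 32 RAB genes were called in ERC4 and 30 of 36 in Esh9-1, where 68.1% and 65.9% of all genes that were not dim were called. Scaling also ended calls in ERC4: besides RAB5A and RAB5B, RAB2A (0.02), RAB8A (0.08), RAB36 (-0.13) and RAB27A (-0.03) no longer passed after quantile normalisation, and RAB36 (-0.18), RAB3A (-0.26) and RAB6B (-0.23) did not after median centring. RAB23 passed as higher in ERC4 under both scalings. A single array mattered for the calls with small changes. In ERC4, the calls of RAB27A, RAB36, RAB3A, RAB4A, RAB5B and RAB6B each ended without 1 array, with adjusted p-values of 0.053 to 0.14 (limma), and each of the 6 arrays of ERC4 and HCC827 ended at least 1 of them. In Esh9-1, the calls of RAB11B, RAB22A, RAB23, RAB3A, RAB4A and RAB8B did so, with adjusted p-values of 0.051 to 0.15, and each of the 6 arrays of Esh9-1 and HCC827NT, and ERC4 replicate 3 through the shared variance, ended at least 1.

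For 21 RAB genes the array carried several probe sets, up to 6 for RAB2A, and these could disagree. All probe sets of a gene were called in 1 direction for 6 genes in ERC4, namely RAB15, RAB27B, RAB29, RAB3B, RAB5A and RAB5C. In Esh9-1 this held for 9 genes, namely RAB11B, RAB15, RAB27B, RAB29, RAB35, RAB3B, RAB40B, RAB4A and RAB5C. Probe sets of 1 gene were called in opposite directions for RAB2A and RAB7A in ERC4 and for RAB27A and RAB5A in Esh9-1. The matching shares over all 4310 genes with several probe sets were not counted, so these counts do not set the RAB genes apart. For RAB5A the brightest probe set read 0.38 in Esh9-1 and another read -0.66. RAB25, RAB17 and RAB9A each rest on a single probe set (218186_at, 218931_at and 221808_at), so no other probe set bears on them. How far a probe set also reads a paralogue was not tested.

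**Figure D3:**
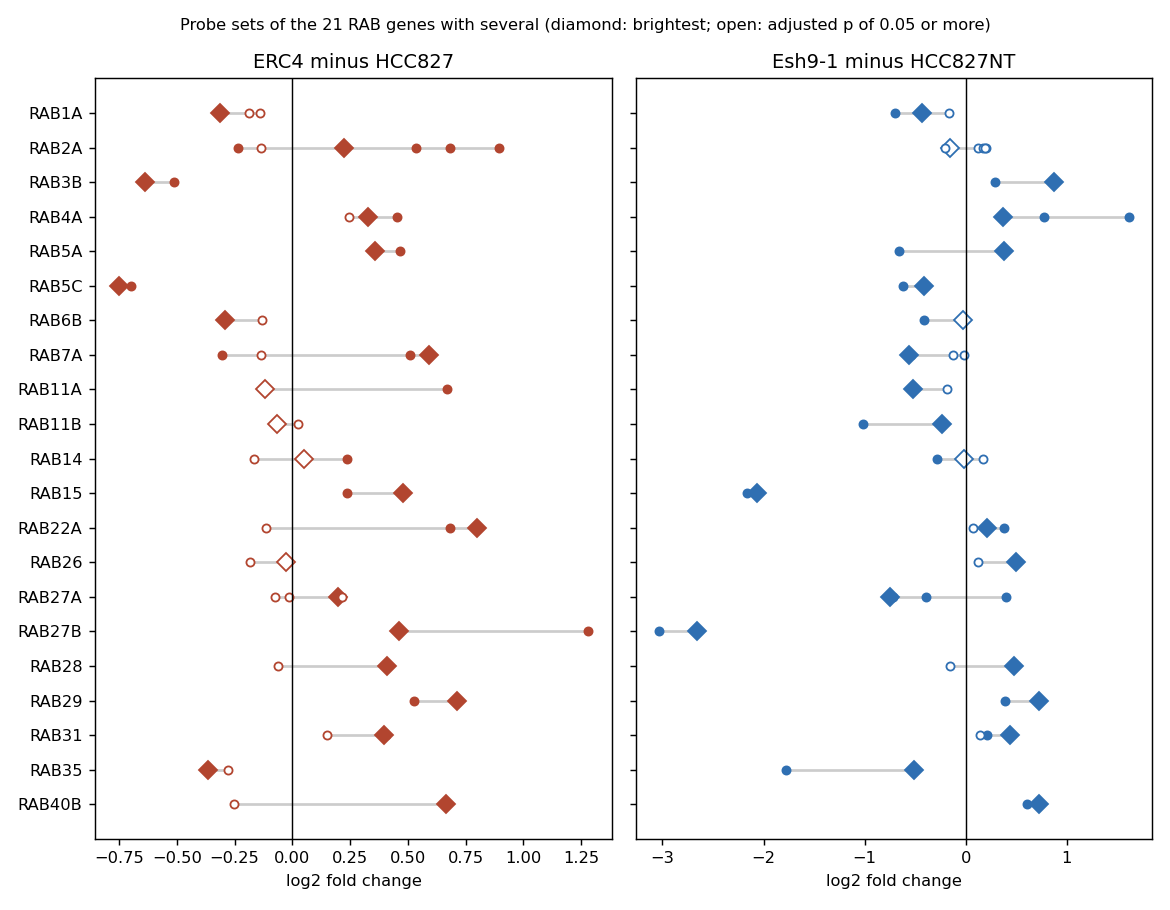
Log2 fold changes of every probe set of the 21 RAB genes with several probe sets, for ERC4 minus HCC827 and Esh9-1 minus HCC827NT. Diamonds mark the brightest probe set of a gene and open symbols did not pass the test. The probe sets of RAB27B and of RAB15 lie on the same side of 0 within each comparison. Those of RAB5A spread over both sides of 0 in Esh9-1.

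The comparisons had no arrays in common, so their changes could be set against each other gene by gene. Of the 41 RAB genes, 10 were higher in both (24.4%), where 13.4% of all genes were, and 7 were lower in both (17.1%), where 8.80% of all genes were. Another 5, RAB15, RAB21, RAB27A, RAB27B and RAB7A, were higher in ERC4 and lower in Esh9-1 (12.2%), where 6.40% of all genes were. RAB3B alone was lower in ERC4 and higher in Esh9-1, where 3.25% of all genes were. A further 5 RAB genes were called in the ERC4 comparison and not in the Esh9-1 one, 8 the other way round, and 5 in neither. The shares of all genes were 25.8%, 18.0% and 24.3%. All these shares include dim genes, which were 9 and 5 of the RAB genes in the 2 comparisons. Over all genes, 1907 of 4632 dim genes were called in ERC4 and 1186 of 4709 in Esh9-1. The shares among genes that were not dim were not counted. Across the 41 genes the log2 fold changes of the comparisons had a Pearson r of 0.49 and a Spearman rho of 0.33, where all 11963 genes had 0.37 and 0.28. Without RAB25 and RAB17 the r over the other 39 genes was 0.13 and the rho 0.24. That omission was 1-sided: it took out 2 genes with large falls in both comparisons. RAB27B and RAB15, which moved in opposite directions with large falls in Esh9-1, were kept. Genes of 1 sample are not independent replicates, and no p is given.

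The difference between the comparisons, ERC4 minus HCC827 less Esh9-1 minus HCC827NT, was itself tested in the same model. The sets differed in spread as well as in median: the SD of the log2 values of an array lay between 1.83 and 1.96 in ERC4 and HCC827 and between 2.24 and 2.27 in Esh9-1 and HCC827NT. The part of this in the differences was not tested. The difference passed for 22 RAB genes (53.7%), where 49.6% of all genes passed, with 13 differences above 0 and 9 below, where 25.5% of all genes passed above 0 and 24.1% below. That split of the RAB genes turned to 8 above and 10 below after quantile normalisation, where 47.7% of the calls over all genes were above 0, against 51.4% as reported. The difference was 3.12 ± 0.11 for RAB27B (adjusted p = 3.6e-11), 2.54 ± 0.10 for RAB15 (adjusted p = 1.6e-10), 1.22 ± 0.10 for RAB21 (adjusted p = 1.5e-07) and 1.16 ± 0.13 for RAB7A (adjusted p = 4e-06). It was -1.51 ± 0.10 for RAB3B (adjusted p = 1.4e-08) and -1.07 ± 0.13 for RAB33B (adjusted p = 8.7e-06). Genes that rose about alike, such as RAB29 with a difference of -0.01 ± 0.15 (adjusted p = 0.94) and RAB31 with -0.04 ± 0.10 (adjusted p = 0.74, but -0.26 with an adjusted p of 0.03 after quantile normalisation), did not pass, which does not show that they changed equally. The calls of RAB17, RAB20, RAB26, RAB36, RAB5C and RAB8A for this difference ended without 1 array, with adjusted p-values of 0.051 to 0.11, and each array other than HCC827 replicates 1 and 2 ended at least 1 of them.

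**Figure D4:**
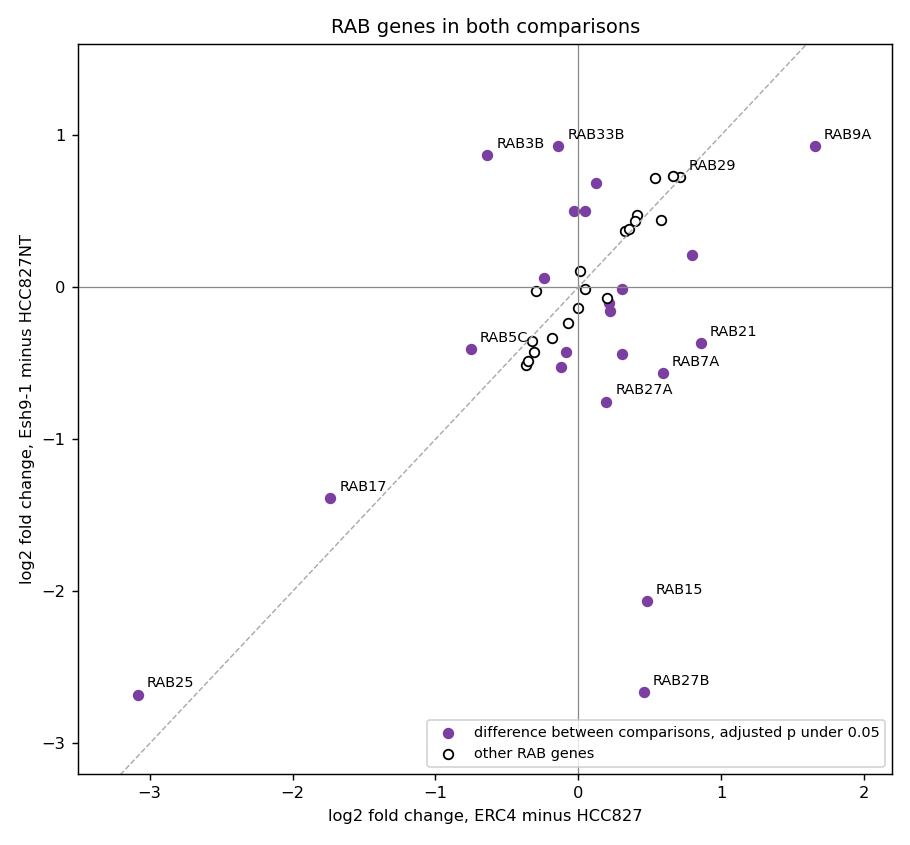
Log2 fold change in Esh9-1 minus HCC827NT against that in ERC4 minus HCC827, 1 point for each of the 41 RAB genes. Purple points differed between the comparisons in the test and the dashed line marks equal change; RAB25 and RAB17 lie low on both axes, and RAB27B and RAB15 lie far below the line.

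The proteins that switch and read RABs were taken from a list of 139 partner genes, of which 106 were measured: 28 exchange factors, 26 GTPase-activating proteins, 46 effectors and 6 genes of prenylation and GDI. In ERC4, 42 were higher, 23 lower and 41 did not pass, so 61.3% were called where 57.7% of all genes were. In Esh9-1, 42 were higher, 29 lower and 35 did not pass, so 67.0% were called where 49.9% of all genes were. The median log2 fold change was 0.06 in each comparison. Dim genes, with both group means under the array medians, were 29 of the 106 in ERC4, of which 15 were called. In Esh9-1 they were 26, of which 13 were called. Of all genes that were not dim, 68.1% were called in ERC4 and 65.9% in Esh9-1, so the partner shares above do not show an excess among brighter genes. In the fit of the 8599 genes whose highest group mean reached 6.37, 41 partner genes were higher and 22 lower in ERC4. That made 65.1% of the partner calls higher, where 60.4% of the calls over all such genes were.

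Of the exchange factors, 11 rose and 9 fell in ERC4 (71.4% called, against 57.7% of all genes). In Esh9-1, 9 rose and 7 fell (57.1%, against 49.9% of all genes). Of the 28 exchange factors 5 were dim in ERC4, with 4 called, and 5 in Esh9-1, with 3 called. The shares of all genes that were not dim were 68.1% in ERC4 and 65.9% in Esh9-1. DENND5A, a DENN-domain protein, rose by 1.02 ± 0.09 in ERC4 and by 1.33 ± 0.09 in Esh9-1. DENND5B, its paralogue, had levels of 7.40, 7.76 and 7.41 in Esh9-1, against 5.16, 5.55 and 5.44 in HCC827NT. It rose there by 2.14 ± 0.12 (4.41-fold, adjusted p = 2.2e-09). DENND5B also rose by 0.66 in ERC4, where the ERC4 and HCC827 means both lay below 6.37, the overall median log2 value. DENND1A, an exchange factor of RAB35, rose by 0.64 in ERC4 and by 1.20 ± 0.11 in Esh9-1, and DENND2D fell by 0.85 ± 0.11 in ERC4 and by 1.58 ± 0.11 in Esh9-1.

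Of the GTPase-activating proteins, 9 rose and 7 fell in ERC4 (61.5% called, against 57.7% of all genes). In Esh9-1, 11 rose and 7 fell (69.2%, against 49.9% of all genes). Of the 26 genes 8 were dim in ERC4, with 5 called, and 6 in Esh9-1, with 3 called. The shares of all genes that were not dim were 68.1% in ERC4 and 65.9% in Esh9-1. TBC1D30, which acts on RAB8, had levels of 4.49, 4.58 and 4.32 in ERC4, against 6.63, 6.42 and 6.30 in HCC827, and of 6.92, 6.59 and 6.30 in Esh9-1, against 8.51, 8.42 and 8.65 in HCC827NT. It fell by 1.98 ± 0.13 in ERC4 (3.96-fold, adjusted p = 1.9e-08) and by 1.92 ± 0.13 in Esh9-1 (3.79-fold, adjusted p = 1.6e-08). Rises in Esh9-1 included TBC1D9 at 3.51-fold, EVI5 at 2.84-fold, TBC1D12 at 2.69-fold and TBC1D4 (a substrate of insulin signalling) at 2.10-fold. The next largest fall there after TBC1D30 was that of TBC1D2, at 1.91-fold. TBC1D9 also rose by 1.17 ± 0.13 in ERC4.

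Of the effectors, 18 rose and 7 fell in ERC4 (54.3% called, against 57.7% of all genes). In Esh9-1, 21 rose and 14 fell (76.1%, against 49.9% of all genes). MYO5C, a myosin of secretory epithelia, had levels of 7.61, 7.66 and 7.72 in Esh9-1, against 10.04, 9.84 and 9.79 in HCC827NT. EXPH5, which binds RAB27, had 7.35, 7.26 and 7.42 in Esh9-1, against 9.50, 9.47 and 9.43 in HCC827NT. MYO5C fell by 2.23 ± 0.08 (4.68-fold, adjusted p = 1.1e-11) and EXPH5 fell by 2.12 ± 0.08 (4.36-fold, adjusted p = 2.2e-11). In ERC4 neither passed the test, with changes of -0.12 ± 0.08 (adjusted p = 0.21) and -0.14 ± 0.08 (adjusted p = 0.16), and the differences between the comparisons were 2.11 ± 0.11 (adjusted p = 2.4e-09) and 1.99 ± 0.11 (adjusted p = 5.6e-09). MLPH, which links RAB27A to a myosin, fell in both, by 0.37 in ERC4 and by 0.53 in Esh9-1. RIMS2, an effector of RAB3, rose by 1.32 ± 0.07 in Esh9-1 and fell by 0.34 in ERC4. The RIMS2 means of ERC4 and HCC827 both lay below 6.37, the overall median log2 value. OPTN, an effector of RAB8, rose by 1.21 ± 0.10 in Esh9-1 and by 0.35 in ERC4. KIF20A, a kinesin first known as a RAB6 partner and needed for cell division, rose by 1.38 ± 0.09 in ERC4 (2.59-fold) and by 0.59 ± 0.09 in Esh9-1.

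The RAB11FIP proteins are the effectors shared by RAB11 and RAB25. RAB11FIP1 had levels of 7.76, 7.73 and 7.79 in ERC4, against 6.80, 7.10 and 6.94 in HCC827, and of 9.52, 9.50 and 9.47 in Esh9-1, against 10.04, 10.24 and 10.14 in HCC827NT. It rose by 0.81 ± 0.08 in ERC4 (1.76-fold, adjusted p = 8.2e-07) and fell by 0.64 ± 0.08 in Esh9-1 (1.56-fold, adjusted p = 7.2e-06), a difference of 1.46 ± 0.11 (adjusted p = 9.7e-08). RAB11FIP3 rose by 0.38 in ERC4 and fell by 0.42 in Esh9-1. RAB11FIP2 rose by 1.00 ± 0.12 in ERC4 and changed by -0.02 in Esh9-1 (adjusted p = 0.93). Its ERC4 and HCC827 means both lay below 6.37, the overall median log2 value. RAB11FIP5 changed by -0.09 in ERC4 (adjusted p = 0.36) and rose by 0.75 in Esh9-1. RAB11FIP4 passed in neither. Of the 6 prenylation and GDI genes, 4 rose and 2 did not pass the test in ERC4 (66.7% called, against 57.7% of all genes). In Esh9-1, 1 rose, 1 fell and 4 did not pass (33.3% called, against 49.9% of all genes). In ERC4, 1 of the 6 genes was dim and was called, where 68.1% of all genes that were not dim were called. GDI2 rose in both, by 0.36 and 0.23.

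**Figure D5:**
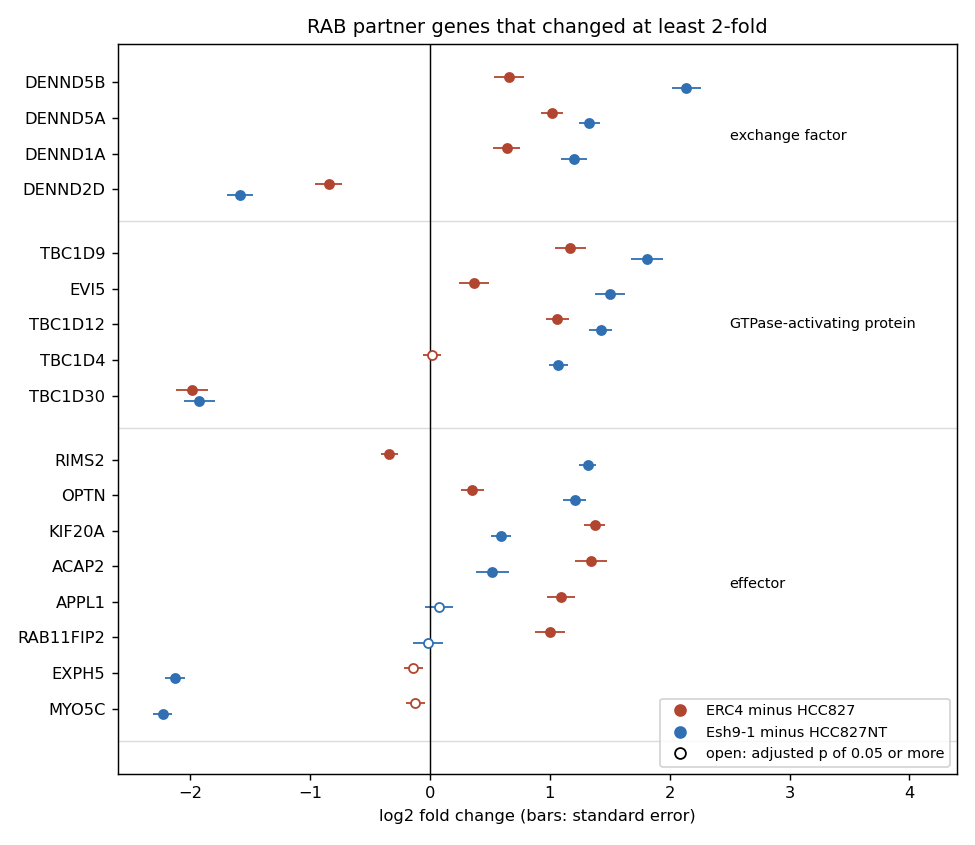
Log2 fold changes of the 17 partner genes that were called with a change of at least 2-fold in a comparison, by class, for ERC4 minus HCC827 and Esh9-1 minus HCC827NT. Filled symbols passed the test and bars are standard errors; TBC1D30 lies left of 0 in both comparisons, and MYO5C and EXPH5 lie far left only in Esh9-1.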

How the data were processed

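Biotin-labelled RNA of 12 samples was hybridised to 1-colour arrays. The authors deposited intensity values on a linear scale, for which the submitters' processing notes name RMA. Its version, and whether all arrays went through it jointly, was not given in the sources used here. Probe sets were named from the GEO platform annotation: 19070 had 1 symbol, 1043 had several and 2164 had none. Here log2(value + 1) was taken, the brightest probe set kept for each of 11963 genes, and 1 model of 4 group means fitted (lmFit and eBayes, limma 3.58.1, R 4.3.3) with Benjamini-Hochberg adjustment over all genes at 0.05. A fold change is on the log2(value + 1) scale, which understates changes of dim genes. The number of arrays, 3 a group, limits the precision. The procedure was tested on simulated data. The files give no detection calls, so genes under the array medians were counted as dim. Promoters came from RefSeq (GRCh38.p14). All 12 sample columns were used. Values per array were given for RAB25 and for each RAB gene called with a log2 change of at least 1, and added for others after their values were seen. The other RAB genes are given by role. Partner genes were named from the largest called changes of each class, up to 5 in each direction and comparison. Genes with both group means below 6.37, the overall median log2 value, were left out of that selection, and the RAB11FIP genes were added. Some selected genes were not named, such as the effectors GOLGA2 and RABEP2, which fell more than MLPH in ERC4. The members, roles and lists were chosen with earlier results of these data known. One symbol that matched the naming rule was not analysed here. Alternatives covered the samples fitted, the replicate block, eBayes settings, scaling, a filter on dim genes, the pseudocount, the probe set and leaving out each array.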

Additional observations from a re-analysis of the deposited data

Results flagged for a closer look

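For 6 RAB genes the changes were called in opposite directions in the 2 comparisons, and the test of the difference itself, ERC4 minus HCC827 less Esh9-1 minus HCC827NT on the log2 scale, passed. The difference was 2.54 for RAB15, 1.22 for RAB21, 0.95 for RAB27A, 3.12 for RAB27B, 1.16 for RAB7A and -1.51 for RAB3B. For RAB27A the direction in ERC4 turned after quantile normalisation.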

How the results depend on the processing

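Of the 41 RAB genes, the number called stayed between 24 and 30 in ERC4 (28 as reported) and between 26 and 32 in Esh9-1 (31), and the number with a difference between the comparisons between 18 and 26 (22), over the settings tried, array omissions included. Deviations of same-numbered arrays correlated at 0.0021 to 0.068 in ERC4 and HCC827, and at -0.12 to -0.019 in Esh9-1 and HCC827NT. Those of differently numbered arrays correlated at -0.097 to 0.062 and at -0.046 to 0.14. With 3 arrays a group, these values cannot exclude that replicate numbers pair the samples. With the replicate block, 28 RAB genes were called in ERC4, 31 in Esh9-1 and 21 for the difference, and 65 and 70 partner genes. The share of RAB calls that were higher in ERC4 was 64.3%, with 53.8% after quantile normalisation and 73.1% after median centring, where over all genes it was 46.9% and 59.0% under these scalings. For the difference it was 59.1%, 44.4% and 68.4%, and over all genes 51.4%, 47.7% and 59.4%. The falls of RAB25 ranged from -3.15 to -2.38 in ERC4 and from -2.73 to -2.38 in Esh9-1, and those of RAB17 from -1.81 to -1.46 and from -1.44 to -1.25, called throughout. Signs turned as follows. In ERC4 the mean of the probe sets gave RAB11A 0.28, quantile normalisation gave RAB27A -0.033, and another probe set gave RAB11A 0.67, RAB22A -0.11, RAB27A -0.014 and -0.075, RAB28 -0.061, RAB2A -0.13 and -0.24, RAB40B -0.25, and RAB7A -0.31 and -0.14. In Esh9-1 another probe set gave RAB27A 0.40, RAB28 -0.16 and RAB5A -0.66, and the mean of the probe sets gave RAB5A -0.14. For the difference, a pseudocount of 16 gave RAB25 0.0085 and the mean of the probe sets gave RAB5A 0.55. The cause of these turns was not tested. The alternatives with single probe sets and without dim RAB genes were added after seeing the data.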
